A study of Rattus norvegicus with 3 samples.

Results

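Of the genes that encode subunits of the GABA-A receptor, 7 were followed across the housing conditions. They are the alpha subunit genes Gabra2, Gabra3, Gabra4 and Gabra5, the beta subunit genes Gabrb1 and Gabrb2, and the delta subunit gene Gabrd. They were chosen by name, with earlier results of these data known. All 7 were found once among 19113 listed genes, and all 7 were among the 16775 protein-coding genes with a mean scaled count above 1, the set compared here. Further subunit genes are treated as part of the pathway.

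The RNA came from punches of the basolateral amygdala (BLA) of adult male Sprague-Dawley rats, without any drug, transgene or behavioural test. Rats of the SH library lived under standard housing, in pairs. Rats of the EE library were environmentally enriched, sharing a large cage with toys and shelters in their active cycle and sitting alone by day. Rats of the ER library had the same enrichment for 4 weeks and were then moved to single cages without it for 2 weeks (enrichment removed). Social housing differed along with enrichment, and the 2 cannot be told apart. Each condition is 1 library made from pooled RNA of 10 rats. No difference below therefore has a replicate check or a p-value, and each interval covers counting error between 2 libraries only. A punch is bulk tissue, in which fewer cells of a type and less RNA per cell cannot be told apart.

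GABA-A receptors are chloride channels opened by the inhibitory transmitter GABA. Each channel is a ring of subunits, usually of alpha and beta subunits joined by a gamma or a delta subunit, and the alpha subunit in the ring sets much of its pharmacology and its place in the cell. Receptors with alpha2 or alpha3 and a gamma subunit sit largely at synapses and bind benzodiazepines. Receptors with delta, often beside alpha4, and many with alpha5 lie outside synapses, where they carry a steady current. The BLA is known for strong control of its projection neurons by local GABA neurons, and alpha2 has been tied in mice to the calming effect of benzodiazepines.

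The libraries held 29263063 to 30334384 reads. A scaled count is the number of reads of a gene corrected for library size, and 1 read was worth between 0.99584 and 1.0339 of it. The tissue label was checked against marker genes. Slc17a7, the vesicular glutamate transporter of projection neurons, stood at 57756 in SH, and Rspo2, which marks BLA projection neurons in rodents, stood at 1817. All 6 projection neuron markers and all 7 inhibitory neuron markers were measured. Gabra6, the subunit of cerebellar granule cells, stood at 2.99 in SH, which is 3 reads. Markers of striatum and central amygdala, next to the BLA, were present in all 3 libraries.

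In the account that follows, a gene was called in a contrast if its ratio was at least 1.1-fold either way and the exact 95% interval of the ratio excluded 1. The contrasts were EEvSH, ERvSH and ERvEE. The depth of each gene sets what can be seen: for Gabra2, with about 10792 reads in 2 libraries, a difference of 1.04-fold already clears counting error, whereas Gabrb1 with about 1026 reads needs 1.13-fold and Gabrd with about 1410 reads needs 1.11-fold. Levels of different genes are not ranked here, because scaled counts grow with transcript length and lengths were not used.

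Levels of the subunit genes differed little between housing conditions. Over the 7 genes, the highest library exceeded the lowest by 1.015-fold (Gabra4) to 1.196-fold (Gabrb1). Their summed scaled counts were 18061 in SH, 17663 in EE and 18101 in ER. The sum was slightly lower in EE than in SH (ratio 0.978, 0.958 to 0.999) and higher in ER than in EE (1.025, 1.003 to 1.047), and both intervals excluded 1. In ERvSH the ratio of the sums was 1.002 (0.982 to 1.02). Most of both differences came from Gabra2, at 5647 in SH, 5255 in EE and 5575 in ER. Gabra4, Gabra5 and Gabrb1 were not lower in EE than in SH.

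**Figure D1:**
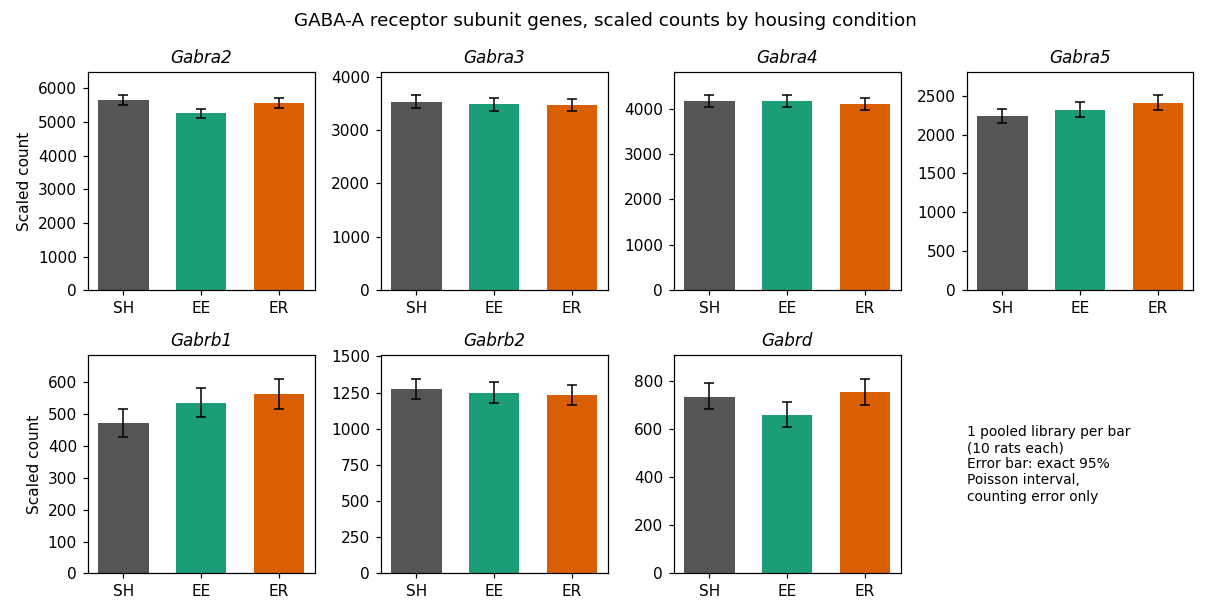
Scaled counts of the 7 subunit genes (vertical axes, from 0) in the SH, EE and ER libraries, 1 pooled library per bar, with exact 95% Poisson intervals that cover counting error only. Gabrb1 stands at 471 in SH, 535.6 in EE and 563 in ER, and Gabrd is lowest in EE at 662.

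Gabra2 encodes alpha2, a synaptic alpha subunit with strong expression in the rodent amygdala. It stood at 5647 in SH, 5255 in EE and 5575 in ER. EE was the low library, and its Poisson interval (5112 to 5402) did not overlap that of SH (5501 to 5796) or that of ER (5428 to 5725). In EEvSH the ratio was 0.931 (0.896 to 0.967). For ERvEE it was 1.06 (1.02 to 1.102). Both intervals excluded 1, but neither difference reached 1.1-fold. In ERvSH the ratio was 0.987 (0.951 to 1.02).

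Gabra3 encodes alpha3, a synaptic subunit found on many subcortical neurons. It stood at 3533 in SH, 3478 in EE and 3471 in ER. The 3 Poisson intervals overlapped, and the ratios lay between 0.983 in ERvSH (0.937 to 1.03) and 0.998 in ERvEE (0.951 to 1.05).

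Gabra4 encodes alpha4, the alpha subunit that most often joins delta and that does not bind classical benzodiazepines. Its scaled counts were 4160 in SH, 4161 in EE and 4098 in ER. These were the closest of any member. The EEvSH ratio of 1.00 had an interval of 0.958 to 1.045, and that of ERvSH, 0.985, ran from 0.943 to 1.03. Ratios below 0.942 or above 1.045 lay outside all 3 intervals of this gene.

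Gabra5 encodes alpha5, a largely extrasynaptic subunit best known from the hippocampus. It was measured at 2238 in SH, 2322 in EE and 2407 in ER. SH was lowest and ER highest, with overlapping Poisson intervals for each pair of libraries. The ERvSH ratio was 1.075 (1.015 to 1.14). That interval excluded 1 and the fold stayed under 1.1. The intervals of EEvSH (1.04, 0.978 to 1.101) and ERvEE (1.04, 0.978 to 1.099) included 1.

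Gabrb1 encodes beta1, a subunit of neurons and also of some glia, which makes receptors little sensitive to etomidate. It had 473 reads in SH, 518 in EE and 549 in ER, or scaled counts of 471, 535.6 and 563. SH was the low library: its Poisson interval (429.5 to 515.5) overlapped that of EE (490.4 to 583.7) and ended just below that of ER (517 to 612). Gabrb1 was called higher in EEvSH (1.14-fold, 1.002 to 1.29) and in ERvSH (1.196-fold, 1.06 to 1.36). In EEvSH the interval only just cleared 1. In ERvEE the ratio was 1.05 (0.931 to 1.19). Both calls rest on the same SH library.

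Gabrb2 encodes beta2, a widespread beta subunit that etomidate acts on. It stood at 1276 in SH, 1249 in EE and 1232 in ER, with Poisson intervals that overlapped throughout. Its ratio was 0.979 in EEvSH (0.904 to 1.06), 0.966 in ERvSH (0.892 to 1.05) and 0.986 in ERvEE (0.910 to 1.07). Of the 2 beta subunit genes, only Gabrb1 was thus called in these contrasts. Within a library, which takes the scaling between libraries out, Gabrb1 had 0.369 reads for each Gabrb2 read in SH, 0.429 in EE and 0.457 in ER. The ratio of these 2 genes was 1.24 times as high in ER as in SH (1.07 to 1.44), and 1.16 times as high in EE as in SH, where the interval (0.9994 to 1.35) included 1.

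Gabrd encodes delta, which takes the place of gamma in extrasynaptic receptors and makes them sensitive to neurosteroids. It had 739 reads in SH, 640 in EE and 736 in ER, or scaled counts of 736, 662 and 755. EE was the low library, with a Poisson interval (611 to 715) that overlapped those of SH (684 to 791) and ER (701 to 812). Gabrd was called higher in ERvEE (1.14-fold, 1.025 to 1.27). The EEvSH ratio was 0.899 with an interval of 0.808 to 1.001, which just included 1, so the gene was not called there. In ERvSH it was 1.03 (0.925 to 1.14). Gabra4, the usual partner of Gabrd, stood at nearly the same level in all 3 libraries. Gabra4 had 5.65 reads for each Gabrd read in SH, 6.29 in EE and 5.43 in ER, and the ratio was lower in ER than in EE (0.863 times, 0.768 to 0.970). In EEvSH the change of this ratio was 1.113 times, with an interval (0.991 to 1.25) that included 1.

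**Figure D2:**
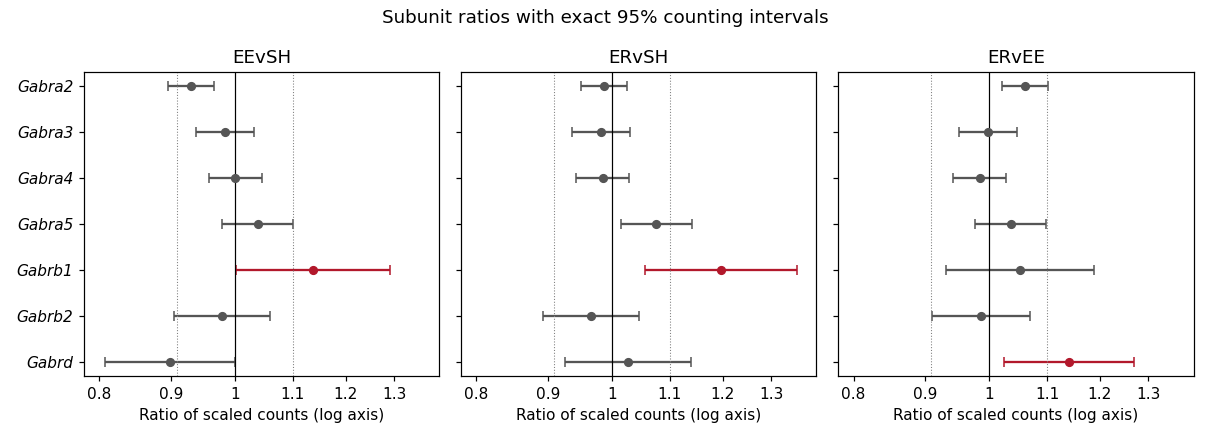
Ratio of scaled counts (horizontal log axis) of each subunit gene in EEvSH, ERvSH and ERvEE, with exact 95% counting intervals and dotted lines at 1.1-fold. Red points are called: Gabrb1 in EEvSH and ERvSH, and Gabrd in ERvEE.

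Upstream sequences are shown for the 2 called genes and for Gabra4, which is the next protein-coding gene to Gabrb1 on chromosome 14 and is read from the opposite strand. Matched by symbol, 6 of the 7 genes had an entry in the RefSeq promoter table (build GRCr8), and Gabra2 had none. Each run is the 250 bases before 1 annotated start, 5′ to 3′ on the strand of the gene. Capitals mark the GC box GGGCGG on either strand.
Gabrb1, chr14:36902894-36903143, minus strand: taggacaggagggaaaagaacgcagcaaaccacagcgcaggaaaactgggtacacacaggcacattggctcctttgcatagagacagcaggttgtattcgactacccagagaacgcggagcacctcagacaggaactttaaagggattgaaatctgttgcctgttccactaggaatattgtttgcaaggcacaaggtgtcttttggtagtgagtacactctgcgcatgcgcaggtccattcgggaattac
Gabra4, chr14:36944497-36944746, plus strand: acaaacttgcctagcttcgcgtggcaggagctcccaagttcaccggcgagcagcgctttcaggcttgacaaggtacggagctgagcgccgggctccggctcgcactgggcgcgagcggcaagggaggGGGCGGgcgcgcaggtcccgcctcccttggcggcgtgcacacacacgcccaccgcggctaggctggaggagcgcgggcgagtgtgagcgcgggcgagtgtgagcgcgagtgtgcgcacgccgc
Gabrd, chr5:171252710-171252959, minus strand: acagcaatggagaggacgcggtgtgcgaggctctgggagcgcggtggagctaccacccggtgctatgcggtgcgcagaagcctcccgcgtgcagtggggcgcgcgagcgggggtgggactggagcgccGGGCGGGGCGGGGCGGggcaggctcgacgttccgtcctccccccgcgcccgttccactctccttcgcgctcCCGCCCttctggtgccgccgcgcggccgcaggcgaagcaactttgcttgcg

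These stretches differ in base composition: 49.2% of the bases were G or C for Gabrb1, 71.6% for Gabra4 and 74% for Gabrd. The GC box was found 4 times before Gabrd, with 3 of the matches overlapping each other, once before Gabra4 and not before Gabrb1. It was present in 3 of the 6 windows (250 bases before to 50 after the start) and in 33.1% of all 33469 promoters of the table. The letters TATAAA, searched on both strands, occurred in 1 of the 6, that of Gabra3, against 14.2% of all promoters. The cAMP response element TGACGTCA (1.83% of all promoters) and the Egr site GCGTGGGCG (0.544%) occurred in none of the 6. Gabrb1, called in 2 contrasts, and its neighbour Gabra4, called in none, had a read ratio of 8.83 Gabra4 reads for each Gabrb1 read in SH, 7.77 in EE and 7.28 in ER. That ratio was 0.824 times as high in ER as in SH (0.722 to 0.941). In EEvSH the interval of the change, 0.769 to 1.006, included 1.

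Counts of called subunits were read against all genes compared. In EEvSH 1 of the 7 genes was called higher and 0 lower, where 5.61% of all genes were called higher and 5.53% lower. The gene was Gabrb1. In ERvSH the count was again 1 higher (Gabrb1) and 0 lower, beside 4.35% and 4.2% of all genes. In ERvEE it was 1 higher (Gabrd) and 0 lower, beside 4.19% and 4.04%. With 7 members, 1 call is the smallest count above 0, and the 3 contrasts share libraries, so these counts are not independent. None of the 7 genes reached 1.5-fold with an interval excluding 1 in any contrast. That rule was met by 2.13% of all genes for EEvSH, 1.68% for ERvSH and 1.7% for ERvEE.

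The median log2 ratio of the 7 genes (pseudocount 1) was −0.02 for EEvSH, −0.02 for ERvSH and 0.05 for ERvEE. Over all 16775 genes it was 0.00 in each. For the subunits the median absolute log2 ratio was 0.05 (EEvSH), 0.04 (ERvSH) and 0.05 (ERvEE). For 8226 genes with a mean at least that of Gabrb1 it was 0.05, 0.05 and 0.04. Gabrb1 in ERvSH, with a log2 ratio of 0.26, differed by more than 98.9% of those genes, and in EEvSH (0.18) by more than 94.4%. Gabrd differed by more than 97.2% of them in ERvEE (0.19) and 90.2% in EEvSH (−0.15). Both genes lie near the low end of that range of levels, where counting error is largest. Of the 21 member ratios, that of Gabrb1 in ERvSH (1.196) lay farthest from 1.

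**Figure D3:**
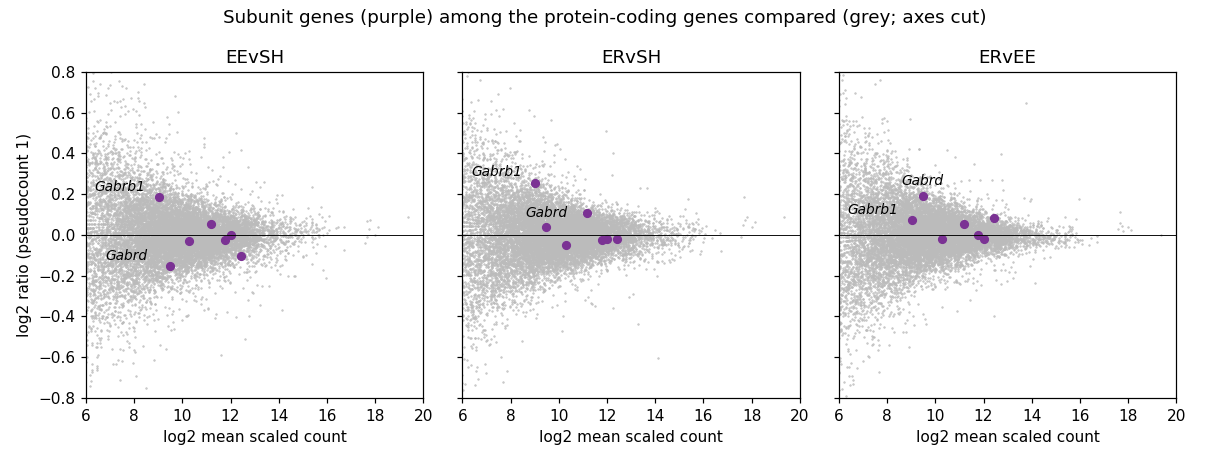
log2 ratio (vertical axis, pseudocount 1) against log2 mean scaled count (horizontal axis) for the protein-coding genes compared (grey) and the 7 subunit genes (purple) in the 3 contrasts. Of the 7, Gabrb1 (0.26 in ERvSH) and Gabrd (0.19 in ERvEE) lie farthest from 0 in those contrasts. Some grey points at like levels lie farther out.

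The make-up of the subunit reads was compared next. Within the 18136, 17084 and 17646 reads that the 7 genes held in SH, EE and ER, the share of each gene does not depend on the scaling between libraries. Gabra2 took 31.3% in SH (exact binomial interval 30.6 to 31.95), 29.8% in EE (29.1 to 30.4) and 30.8% in ER (30.1 to 31.5). Gabra5 took 12.4% in SH (11.9 to 12.9), 13.2% in EE (12.6 to 13.7) and 13.3% in ER (12.8 to 13.8). The share of Gabrb1 was 2.61% in SH (2.38 to 2.85), 3.03% in EE (2.78 to 3.30) and 3.11% in ER (2.86 to 3.38), and its SH interval lay below that of ER. Gabrd took 4.075%, 3.75% and 4.17%, with overlapping intervals. Shares of different genes reflect transcript length as well as abundance and are not set against each other.

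**Figure D4:**
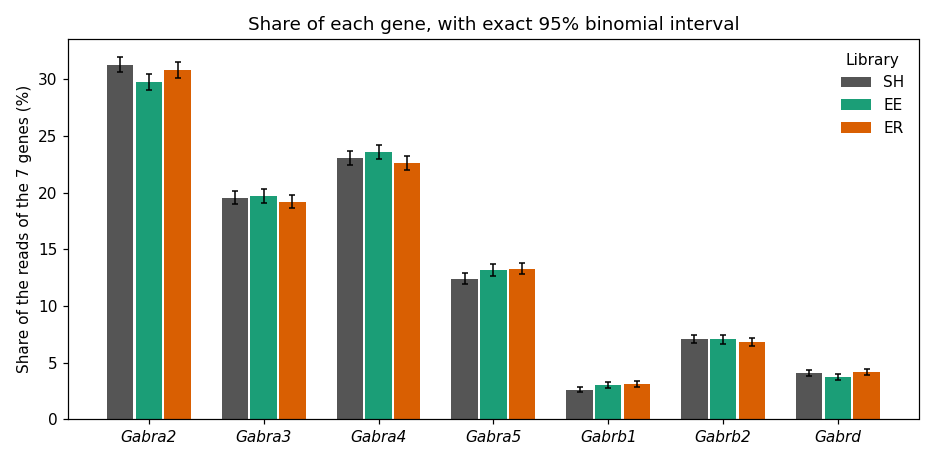
Share (vertical axis, percent) of each gene in the reads of the 7 subunit genes in the SH, EE and ER libraries, with exact 95% binomial intervals. The largest relative step is that of Gabrb1, from 2.61% in SH to 3.11% in ER, and heights of different genes also reflect transcript length.

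Of the 21 pairs of members, the read ratio differed beyond counting error for 6 pairs in EEvSH, 8 in ERvSH and 4 in ERvEE. Pairs share genes and are not independent. The share for pairs of other genes was not computed, so these counts have no baseline. In EEvSH 3 of the 6 pairs held Gabra2, 3 held Gabrb1 and 2 held Gabrd, and these groups overlap. The widest change was in Gabrb1 against Gabrd, from 0.640 reads per Gabrd read in SH to 0.809 in EE (1.265 times, 1.07 to 1.49). The ratio of Gabra2 to Gabra4, both in the gene cluster of chromosome 14, was 1.36 in SH, 1.26 in EE and 1.36 in ER. It was lower in EE than in SH (0.930 times, 0.878 to 0.986) and higher in ER than in EE (1.08 times, 1.02 to 1.14), and both changes use the EE library. In ERvSH 4 of the 8 pairs held Gabra5 and the other 4 held Gabrb1. Gabra2 to Gabra5 was 2.52 in SH, 2.26 in EE and 2.32 in ER, lower than in SH in both (0.897 times, 0.836 to 0.962, and 0.918 times, 0.856 to 0.984). In ERvEE 3 of the 4 pairs held Gabrd.

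Further subunit genes were set beside these 7. Gabrg1, for gamma1, was nearly level at 1281 in SH, 1297 in EE and 1281 in ER (EEvSH ratio 1.01, 0.936 to 1.095). Gabrg3, for gamma3, stood at 179 in SH, 199.5 in EE and 161 in ER, and its ERvEE ratio of 0.807 had an interval of 0.650 to 1.002, which just included 1. Neither gene was called in any contrast. Gabra6, Gabre, Gabrq, Gabrp, Gabrr1, Gabrr2 and Gabrr3 had at most 47.6 in any library, and their intervals included 1 in all contrasts.

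Of 16 measured genes for receptor scaffolds, assembly and trafficking, 0 were called in EEvSH and ERvSH, and 1, Slitrk3, was called higher in ERvEE. Gphn, for the inhibitory scaffold gephyrin, stood at 2389 in SH, 2176 in EE and 2263 in ER (EEvSH ratio 0.911, 0.859 to 0.966). Nlgn2, the adhesion molecule of inhibitory synapses, stood at 8956, 8605 and 8640 (0.961 in EEvSH, 0.9325 to 0.990). The medians of this list were 0.00 in the 3 contrasts. Of 8 genes for GABA synthesis, transport and breakdown, 3 were called higher and 1 lower in EEvSH, 0 higher and 1 lower in ERvSH, and 0 higher and 3 lower in ERvEE. The gene called lower in both EEvSH and ERvSH was Slc6a11, for a GABA transporter of astrocytes, at 1561 in SH, 1384 in EE and 1384 in ER (0.887 and 0.886). Gad1 and Gad2, the enzymes that make GABA, stood at 8456 and 7961 in SH, 9621 and 9529 in EE, and 8623 and 8388 in ER. In EEvSH Gad1 was 1.14-fold higher (1.105 to 1.17) and Gad2 1.197-fold higher (1.16 to 1.23). Gabra2 and Gabrd were lowest in the same EE library, and a link between these differences was not tested. The chloride exporter gene Slc12a5, which sets the direction of GABA-A currents, had an EEvSH ratio of 0.974 (0.949 to 0.999) and an ERvSH ratio of 0.995 (0.970 to 1.02). Slc12a2, the importer, was the 1 gene called among 6 chloride and carbonic anhydrase genes (1.13-fold in EEvSH, 1.06 to 1.196). Among 6 neurosteroid synthesis genes, Tspo was at least 1.5-fold higher in ERvSH and Srd5a2 at least 1.5-fold lower in ERvEE. Both had few reads, at 23.9 in SH against 44.1 in ER for Tspo and 17.6 in EE against 5.13 in ER for Srd5a2. Gabbr1 and Gabbr2, for the GABA-B receptor, were not called in any contrast.

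Markers of other cells were set beside the 2 called members. Summed markers of striatum and central amygdala (11 of 11 measured) were 13570 in SH, 15656 in EE and 13362 in ER, with 8 genes called higher and 1, Ppp1r1b, lower in EEvSH, and 0 called higher and 8 lower in ERvEE. Scn4b was 1.65-fold higher in EEvSH (1.35 to 2.02), and its ERvEE ratio was 0.686 (0.563 to 0.834). Inhibitory neuron markers (7 of 7) summed to 25818, 29361 and 26329. In EEvSH 4 were called higher and 0 lower. In ERvEE, the contrast in which Gabrd was called higher, 0 were called higher and 5 lower. Gad1, Gad2 and Slc32a1 were among those called in both contrasts, and they are also counted in the GABA synthesis list above. The other gene called in EEvSH was Npy, while Pvalb (1.03), Sst (1.08) and Vip (0.951) were not called there. Both sums were thus highest in the EE library, in which Gabrd was lowest. Oligodendrocyte markers (5 of 5) summed to 102916 in SH, 116154 in EE and 111635 in ER, and blood markers (3 of 3) to 1576, 2257 and 2057. These were lowest in the SH library, as were Gabrb1 and Gabra5. The same held for astrocyte markers (5 of 5), which summed to 37827, 38888 and 38064. It also held for thalamus markers (5 of 5), at 898.2, 1065 and 996.1, and the 1 measured endothelial marker, at 1296, 1301 and 1324. Projection neuron markers (6 of 6) summed to 96383, 94932 and 95693, lowest in EE. Microglia markers (5 of 5) summed to 4830, 4919 and 4814, lowest in ER. No defining marker of these lists was at 0. The part of tissue composition in the differences of Gabrb1, Gabrd, Gabra2, Gad1 and Gad2 was not tested.

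Likeness of pattern was measured as the distance between log2 EE/SH and log2 ER/SH over the 3 libraries, among 7842 other protein-coding genes that carry a gene name and average 500 or more. For Gabrb1 the nearest gene was Lrrc8b (log2 ratios 0.19 and 0.24), and 26 genes lay within 0.05. For Gabrd the nearest was Dedd (−0.16 and 0.04), with 109 genes within 0.05. For Gabra4, by contrast, 1706 genes, or 21.8%, lay that close, as the pattern of little difference was common.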

How the data were processed

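RNA from BLA punches of 10 rats per condition was pooled, polyadenylated RNA was selected and strand-keeping libraries were made, 1 per condition. The authors aligned reads with HISAT2 and scaled them with DESeq2. Tool versions, build, annotation and counting rules were not given in the sources used here. The deposited values are a normalised signal, reads divided by a size factor. All values were whole multiples of 1 read within 0.001 reads (100% in each library), so reads were recovered. Strand use in counting is not stated, so overlapping genes may share reads.

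Ratios of scaled counts carried exact 95% Clopper-Pearson intervals from recovered reads, and changes of within-library read ratios carried exact conditional odds ratio intervals. Log2 ratios used a pseudocount of 1. Intervals cover counting error only, since each condition has 1 library. PCR copies were not marked by molecular identifiers and count as separate reads. No p-value was computed. The study also compared folds without statistics and kept protein-coding genes with a base mean above 1, the filter used here. A gene with no read in the divisor was called from its interval. The calling procedure was tested on simulated reads with counting error only. That test cannot speak to variation between rats or pools, because none was simulated.

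The members, lists, call rule and alternatives were chosen with earlier results of these data known. All members were named. Of the pathway and marker lists, genes past 1.5-fold, the first 2 of a list and further subunit genes were named. Other list genes (Slitrk3, Nlgn2, Slc6a11, Rspo2, Slc32a1, Npy, Pvalb, Sst, Vip) were picked for the text after their values were seen. List symbols not matched directly (among them Hsd3b1, Kctd8, Kctd12, Kctd16, Pecam1 and Cldn5) were left out, and some pathway genes are not reported here. Alternatives were other scalings (library totals, edgeR TMM, upper quartile), pseudocounts of 0.5 and 5, other call rules and other filters. Python 3.11.15, numpy 2.4.6, pandas 2.3.3, scipy 1.17.1, matplotlib 3.10.9, R 4.3.3 and edgeR 4.0.16 were used.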

Additional observations from a re-analysis of the deposited data

How the results depend on the processing

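With 1 library per condition, replicates could not be left out. No paired analysis was possible because each condition has 1 library and the shared replicate number 1 pairs nothing. Scaling by TMM or upper quartile changed no call among the 7 genes. With library totals Gabrd was also called in EEvSH (0.898), which made 2 members called there in place of 1. The number of members called depended on the rule. With the interval alone it was 2 in each of EEvSH, ERvSH and ERvEE, Gabra2 being added in EEvSH and ERvEE and Gabra5 in ERvSH. Of all genes compared, 18.2%, 15.5% and 13% met that rule in these contrasts. Among the 8226 genes with a mean at least that of Gabrb1, 26.1%, 22.6% and 17.2% met it. With 1.1-fold and no interval the number of members called was 2 in EEvSH, and with 1.2-fold or 1.5-fold it was 0 in each contrast. The medians, the highest and lowest ratios and the shares moved by less than counting error under every alternative run, and the share of all genes called stayed within 1.5 times its value. Depth limits Gabrb1 and Gabrd most, since in EEvSH an interval end lies at 1.002 for Gabrb1 and at 1.001 for Gabrd.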
